A study of Mus musculus with 6 samples.

Results

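The genes described here are the mouse Wnt ligands, their Frizzled and LRP receptors, the R-spondins, the secreted antagonists of the SFRP and DKK families, the Axins and the TCF/LEF transcription factors. They were chosen by gene symbol among protein-coding genes. The rule itself uses no measured value, but it was chosen with earlier results of these data known. It gave 49 of the 48709 genes in the count files: 19 ligands, 10 Frizzled receptors, 6 co-receptors or R-spondins, 8 secreted antagonists, 2 Axins and 4 TCF/LEF factors. Their RNA was compared between the neocortex of 3 mice with the genotype Rest(+/deltaExon4), called Rest_het here, and 3 wild-type mice (WT), all C57BL/6 embryos at E15.5. Rest_het mice carry 1 Rest allele without exon 4 beside an intact allele, although their sample titles read KO. REST is a DNA-binding repressor that keeps neuronal genes silent outside neurons and in progenitors. The tissue was whole dissected neocortex, so in these bulk samples fewer cells of a type and less RNA per cell cannot be told apart. Litter and sex are not given in the labels, and p-values set the genotype difference against the spread between libraries of the same group.

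Wnt proteins are secreted lipid-modified ligands that bind a Frizzled receptor together with LRP5 or LRP6. Without ligand, a complex built on Axin marks beta-catenin for destruction. With ligand, beta-catenin accumulates and acts with TCF/LEF factors on target genes, of which Axin2 is a feedback inhibitor. R-spondins raise the amount of receptor at the cell surface, and SFRP and DKK proteins act outside the cell on ligand or co-receptor. In the embryonic forebrain the cortical hem, a strip at the medial edge of the cortex, is a source of several Wnts, and Wnt signals pattern the hippocampus, act on cortical progenitors and guide blood vessel growth.

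The libraries held 17835117 to 18426652 gene reads in Rest_het and 19996943 to 20753653 in WT. Rest itself measured 16.7, 19.01 and 18.6 CPM (read count over the TMM-scaled library total) in Rest_het, against 21.03, 19.7 and 21.1 CPM in WT (edgeR adjusted p 0.49), and this total over all exons does not check the deletion of exon 4. Sequences listed beside the genes gave 43 Cre-ERT2 reads in Rest_het and 0 in WT. They gave 0 LacZ reads in Rest_het and 121 in WT, which the labels do not account for. All 12 neocortical markers were tested and present in every library. Their summed level was 2626 to 2780 CPM in Rest_het, against 2807 to 3220 CPM in WT. Lists for neighbouring tissue were also read. The 12 meningeal genes summed to 196 to 549 CPM in Rest_het and 196 to 514 CPM in WT. The 10 choroid plexus genes summed to 8.64 to 376 CPM in Rest_het, against 3.74 to 58.6 CPM in WT. Ttr alone supplied 5.49 to 357 CPM of that in Rest_het and 2.27 to 53.0 CPM in WT. The 12 thalamic and hypothalamic genes summed to 77.9 to 89.3 CPM in Rest_het, against 56.5 to 69.6 CPM in WT. Of this sum Slc17a6 supplied 36.3 to 51.05 CPM. Gbx2, Irx1, Irx2, Irx3, Otp and Sim1 had at most 0.335 CPM in any library. The meningeal sum was highest in Rest_het replicate 3 and WT replicate 1, and the members that were highest in the same libraries are given with and without both.

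Promoter windows from RefSeq (GRCm38.p6), 250 bases before to 50 after a transcription start, existed for 32 of the 49 members, in 40 windows. They are shown for Lef1 and Tcf7l2, the TCF/LEF genes on which the results below turn, for the feedback gene Axin2, and for Wnt5b, whose window holds a TCF/LEF motif. Both strands were searched for the TCF/LEF motif CTTTGAT or CTTTGAA and for the arms of RE1, the element that REST binds, as TTCAGCACC on the left and GGACAGCG on the right. Capitals mark the matches, and a window without capitals held none of these letters. The windows are chr3:131110073-131110372 (plus strand) for Lef1, chr19:55741560-55741859 (plus strand) for Tcf7l2, chr11:108920099-108920398 (plus strand) for Axin2 and chr6:119449337-119449636 (minus strand) for Wnt5b, at a start inside that gene.
Lef1: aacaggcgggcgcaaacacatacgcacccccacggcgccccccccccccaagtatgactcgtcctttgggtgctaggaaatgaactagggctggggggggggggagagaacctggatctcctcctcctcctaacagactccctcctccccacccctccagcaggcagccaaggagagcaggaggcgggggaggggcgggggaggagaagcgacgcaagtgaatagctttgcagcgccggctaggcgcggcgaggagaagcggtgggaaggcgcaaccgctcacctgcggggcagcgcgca
Tcf7l2: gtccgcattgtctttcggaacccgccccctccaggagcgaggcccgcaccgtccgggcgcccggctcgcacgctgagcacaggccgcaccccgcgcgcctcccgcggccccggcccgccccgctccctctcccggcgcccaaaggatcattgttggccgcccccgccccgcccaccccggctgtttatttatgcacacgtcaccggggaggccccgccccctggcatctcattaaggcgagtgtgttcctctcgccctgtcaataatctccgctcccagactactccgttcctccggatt
Axin2: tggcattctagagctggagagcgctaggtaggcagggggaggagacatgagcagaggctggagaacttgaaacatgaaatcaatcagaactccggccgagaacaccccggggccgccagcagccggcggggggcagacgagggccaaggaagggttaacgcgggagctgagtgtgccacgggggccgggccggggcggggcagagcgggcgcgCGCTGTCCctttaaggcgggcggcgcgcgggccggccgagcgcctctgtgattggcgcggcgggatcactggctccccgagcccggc
Wnt5b: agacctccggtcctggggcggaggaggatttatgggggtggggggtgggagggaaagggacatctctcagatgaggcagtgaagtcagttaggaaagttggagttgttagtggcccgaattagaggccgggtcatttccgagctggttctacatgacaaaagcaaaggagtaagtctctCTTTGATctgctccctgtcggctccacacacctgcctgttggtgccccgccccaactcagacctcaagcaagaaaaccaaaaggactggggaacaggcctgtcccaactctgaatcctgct
CTTTGAT was found in 2 of the 40 windows, those of Wnt11 and Wnt5b, and in 3.73% of 32851 windows of all genes. CTTTGAA was in 1, that of Dkk1, and in 5.14% of all windows. The left arm of RE1 was in 0 of 40 and in 0.371% of all windows. The right arm was in 2 of 40, those of Axin2 and Fzd5, and in 1.26% of all windows. The Axin2 match lies on the reverse strand and begins 37 bases before the start. The Lef1 and Tcf7l2 windows had a GC content of 67.3% and 70%, and the median was 68.2% over the member windows, against 52.7% over all windows.

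Family members were also compared with each other to see whether reads could be shared. No stretch of 126 bases, the length of a read, occurred in transcripts of both genes in any of the 242 within-family pairs. The longest run common to the coding sequences of a pair was 47 bases, in Fzd1 with Fzd2 and in Fzd1 with Fzd7. It is shown for Fzd1, at chr5:4756331-4756377 on the minus strand, and the same letters lie within an exon of Fzd2 at chr11:102605740-102605786 on the plus strand.
Fzd1 and Fzd2: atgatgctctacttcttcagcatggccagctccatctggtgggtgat
Exons of other annotated genes overlap 13.7% of the exonic bases of Lef1, 13.1% of those of Rspo3, 16.1% of those of Sfrp2, 17.8% of those of Fzd5 and 6.61% of those of Wnt7b. The libraries do not mark strand, so reads there cannot be assigned to a gene by strand.

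No member of the pathway passed the test for a difference between the genotypes. Of the 49 members, 35 had enough reads to be tested, and edgeR called 0 of the 35 at an adjusted p under 0.05, against 0.123% of the 15385 genes tested (0.065% higher and 0.0585% lower in Rest_het). The smallest adjusted p of a member was 0.36. DESeq2, limma-voom and limma on the deposited normalized values called 0 members as well. At an unadjusted p under 0.05 there were 5 members, Lef1, Wnt5a, Wnt9a and Fzd9 with higher values in Rest_het and Axin1 with lower values, which is 14.3% of the 35 where all tested genes gave 11.7% (6.98% higher and 4.72% lower). The groups did not overlap for 5 of the 35 members, 3 higher and 2 lower in Rest_het, which is 14.3% against 19.3% of all tested genes (10.4% higher and 8.94% lower). Both shares lie near those of all genes. The median log2 fold change was -0.03 over the tested members and 0.01 over all tested genes, with 15 members above 0 and 20 below.

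**Figure D1:**
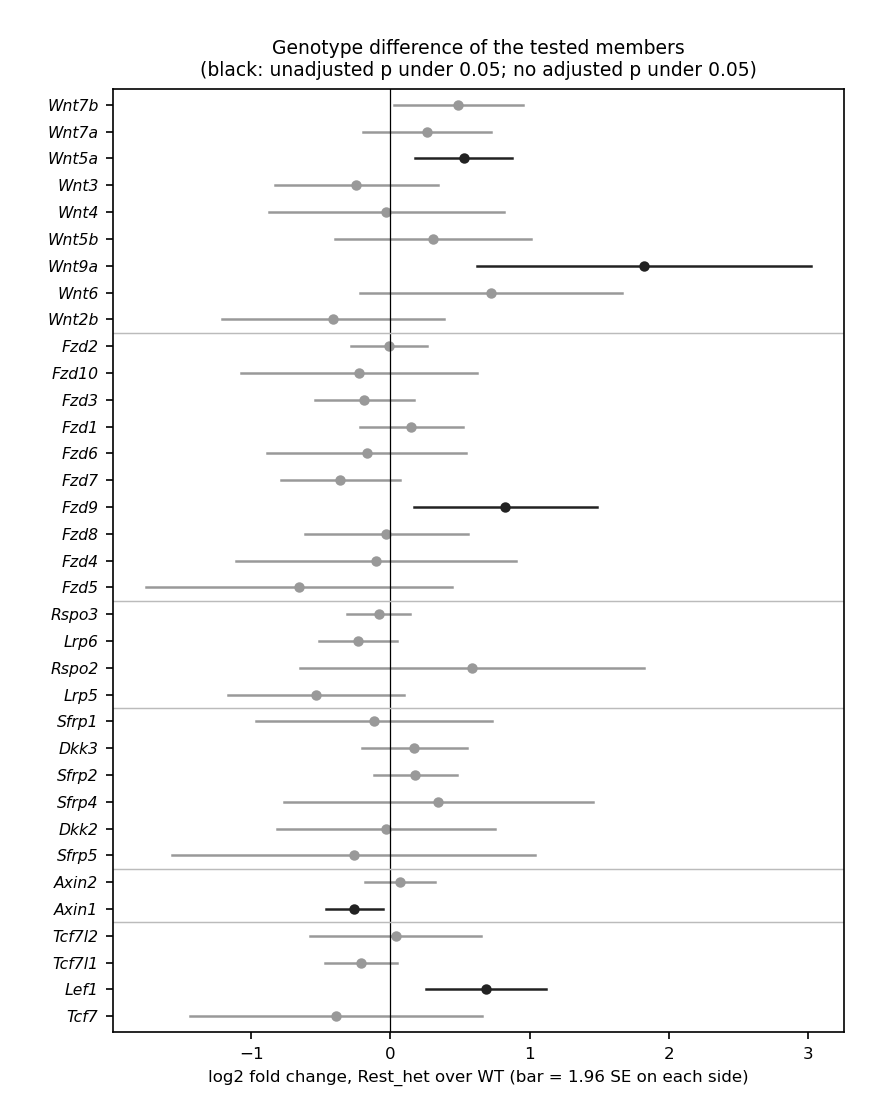
Log2 fold change of the 35 tested members, Rest_het over WT, with bars for the 95% interval, ordered by role and by level. Black marks the 5 members at an unadjusted p under 0.05 (Lef1, Wnt5a, Wnt9a, Fzd9 and Axin1), and 0 members had an adjusted p under 0.05.

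The ligands were dominated by Wnt7b. Per kilobase of exon Wnt7b averaged 6.38 CPM over the 6 libraries (range 3.34 to 8.74), above the whole range of the next ligand, its close relative Wnt7a, at 1.71 (1.35 to 2.43). Wnt5a, a ligand best known for beta-catenin independent signals, followed at 1.34 and Wnt3 at 1.25, and the ranges of Wnt7a, Wnt5a and Wnt3 overlapped. Without length scaling Wnt5a averaged 12.4 CPM in Rest_het and 8.62 CPM in WT, above Wnt7a at 5.92 and 4.94 CPM. Wnt4, Wnt5b, Wnt9a, Wnt6 and Wnt2b lay between 0.116 and 0.471 CPM per kilobase on average. Wnt7b made up 34.1 to 59.8% of the length-scaled ligand sum of a library. In the developing brain WNT7A and WNT7B act on the endothelium and drive growth of vessels into neural tissue.

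Wnt7b (chromosome 15, 85535437 to 85582473 in GRCm38, minus strand) had 42.8, 33.4 and 33.1 CPM in Rest_het, against 16.3, 31.6 and 30.2 CPM in WT. The groups did not overlap, but WT replicate 1 lay far below the other libraries while WT replicates 2 and 3 were just under Rest_het replicates 2 and 3. Its log2 fold change was 0.49 (SE 0.24, edgeR adjusted p 0.46), and 0.24 without WT replicate 1. Wnt5a (chromosome 14, 28504750 to 28527448, plus strand) had 13.1, 12.8 and 11.4 CPM in Rest_het, against 10.8, 7.07 and 7.93 CPM in WT. All Rest_het values were above all WT values, with Rest_het replicate 3 next to WT replicate 1, and the log2 fold change was 0.53 (SE 0.18, edgeR adjusted p 0.36). Without Rest_het replicate 3 and WT replicate 1, a setting chosen after seeing the data, it was 0.78 (edgeR adjusted p 0.22).

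Wnt7a had 4.27, 7.70 and 5.79 CPM in Rest_het, against 4.83, 4.48 and 5.51 CPM in WT, with overlapping groups (edgeR adjusted p 0.68). Wnt9a, a ligand of low level here, had 34, 8 and 38 reads in Rest_het, against 13, 5 and 6 reads in WT. That is 1.84, 0.443 and 2.02 CPM, against 0.621, 0.264 and 0.309 CPM, so that Rest_het replicate 2 fell within the WT range. Its log2 fold change of 1.82 (SE 0.61, edgeR adjusted p 0.36) was the largest in size among the tested members, and the ratio of its highest to its lowest library, 7.65, was the widest among the tested ligands. The Wnt9a values in Rest_het were high in the same replicates 1 and 3 in which the choroid plexus sum was 180 and 376 CPM. They were low in replicate 2, where that sum was 8.64 CPM. Ttr alone supplied 169, 5.49 and 357 CPM of these sums in Rest_het replicates 1, 2 and 3. The part of such tissue in the Wnt9a difference was not tested.

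The remaining 10 ligands were too low to be tested. Wnt2, Wnt8a and Wnt10b had 0 reads in all 6 libraries, and 3 reads over a group, the limit that a count of 0 allows, correspond to 0.0542 CPM in Rest_het and 0.0506 CPM in WT. Wnt1, Wnt3a, Wnt9b, Wnt10a, Wnt11 and Wnt16 had at most 9 reads in any library. Wnt8b, which marks the cortical hem and the hippocampal primordium, was the exception: it had 73, 13 and 7 reads in Rest_het, against 3, 0 and 8 reads in WT. A single library, Rest_het replicate 1, held most of its reads. The summed level of 10 markers of the hem and hippocampal primordium was 158, 134 and 130.4 CPM in Rest_het, against 143, 99.9 and 118 CPM in WT, of which Zbtb20 alone supplied 89.5 to 137 CPM. All 7 of these markers that were tested had log2 fold changes above 0 (median 0.33), and edgeR called 0. Of the 7, Bmp4 (0.0059) and Bmp6 (0.022) hardly differed between the groups. For Msx1, Bmp4 and Bmp7 the highest 2 libraries were Rest_het replicate 3 and WT replicate 1, as for the meningeal sum. Prox1, a marker of the later dentate gyrus, had 2.70, 4.38 and 1.70 CPM in Rest_het, against 0.860, 1.05 and 1.29 CPM in WT (edgeR adjusted p 0.33). Of the hem genes, Gdf7 was at 0 in every library and Msx2 had at most 0.162 CPM. Lmx1a had 0.264 to 1.33 CPM, Msx1 2.16 to 7.44 CPM and Bmp7 3.59 to 9.35 CPM. The part of this tissue in the Wnt8b reads was not tested. Wnt3a, the ligand most closely tied to the hem, had 2, 2 and 1 reads in Rest_het, against 1, 0 and 0 reads in WT.

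Summed over all 19 ligands, Rest_het libraries had 74.8, 64.0 and 60.3 CPM and WT libraries 43.5, 49.5 and 52.7 CPM. The 3 Rest_het sums lay above the 3 WT sums, with means of 66.4 ± 7.54 CPM in Rest_het and 48.6 ± 4.65 CPM in WT (SD, n = 3 each). Wnt7b and Wnt5a supplied most of this sum, as their values above show, and no p is given for it. Single libraries entered the gap, with Wnt7b low in WT replicate 1 (16.3 CPM) and Wnt8b high in Rest_het replicate 1 (3.95 CPM). Of all tested genes, 10.4% were likewise higher in every Rest_het library than in any WT library. Among the 9 tested ligands, 6 had a log2 fold change above 0 and 3 below, with a median of 0.30.

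**Figure D2:**
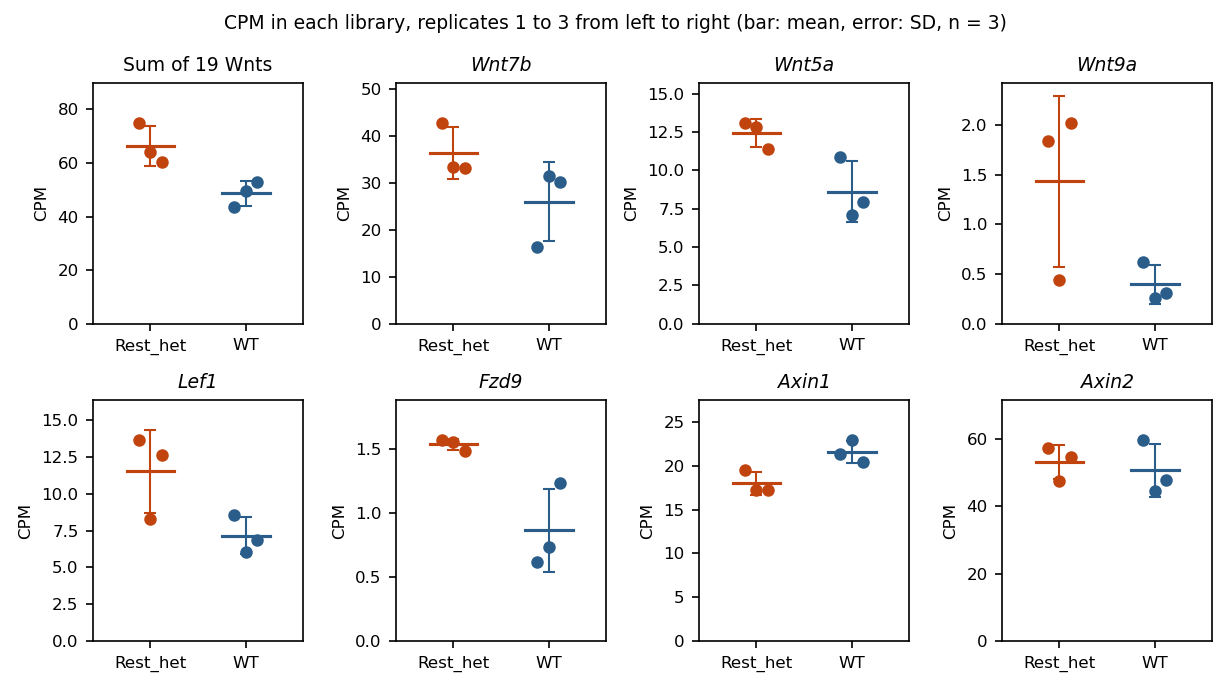
CPM in each library for the sum of the 19 ligands and for 7 members, Rest_het left of WT, replicates 1 to 3 from left to right, with the group mean and its SD (n = 3 each) on axes that start at 0. The ligand sum, Wnt7b, Wnt5a, Fzd9 and Axin1 did not overlap between the groups, Wnt9a, Lef1 and Axin2 did, and 0 of the 7 genes had an adjusted p under 0.05.

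All 10 Frizzled receptors were tested. Fzd2 led with 2.60 CPM per kilobase (range 2.35 to 2.97). Fzd10 (1.36), Fzd3 (1.204) and Fzd1 (1.198) came next with ranges that overlapped each other, and that of Fzd10 also reached into the range of Fzd2. Without length scaling Fzd3 was above Fzd2, at 14.4 CPM in Rest_het and 16.4 CPM in WT, against 9.48 and 9.56 CPM. Fzd6, Fzd7 and Fzd9 averaged 0.523 to 0.778, and Fzd8, Fzd4 and Fzd5 0.0815 to 0.242 CPM per kilobase. The log2 fold change was above 0 for 2 receptors and below 0 for 8 (median -0.14). The summed Frizzled level was 43.7 ± 4.90 CPM in Rest_het and 46.9 ± 0.551 CPM in WT (SD, n = 3 each), and the groups overlapped.

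Fzd9, a receptor expressed in the developing hippocampus and deleted in Williams syndrome in humans, had 1.57, 1.55 and 1.49 CPM in Rest_het, against 0.621, 0.738 and 1.24 CPM in WT. The Rest_het values were close together and above all WT values, of which replicate 3 came nearest. Behind them were 28 or 29 reads per Rest_het library and 13, 14 and 24 reads in WT, and the log2 fold change was 0.83 (SE 0.34, edgeR adjusted p 0.41). Fzd7 lay the other way, with 2.11, 2.49 and 2.87 CPM in Rest_het, against 3.39, 3.32 and 2.88 CPM in WT. Its groups were separated only by the gap between Rest_het replicate 3 and WT replicate 3, and its log2 fold change was -0.36 (SE 0.22, edgeR adjusted p 0.53).

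Fzd2 had 9.84, 9.14 and 9.46 CPM in Rest_het, against 8.60, 10.9 and 9.22 CPM in WT. This receptor was the most even of the family, with a highest library 1.26 times its lowest, and the interval of its fold ran from 0.821 to 1.198 (95% interval from the SE). Fzd10 had 4.54, 2.88 and 4.83 CPM in Rest_het, against 8.22, 2.43 and 3.66 CPM in WT. WT replicate 1 was the highest library for Fzd10, and its log2 fold change of -0.23 (edgeR adjusted p 0.86) became 0.42 without that library. Fzd5 had 9, 13 and 2 reads in Rest_het, against 15, 11 and 15 reads in WT, and its ratio of 7.27 between the highest and the lowest library rested on the 2 reads of Rest_het replicate 3.

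**Figure D3:**
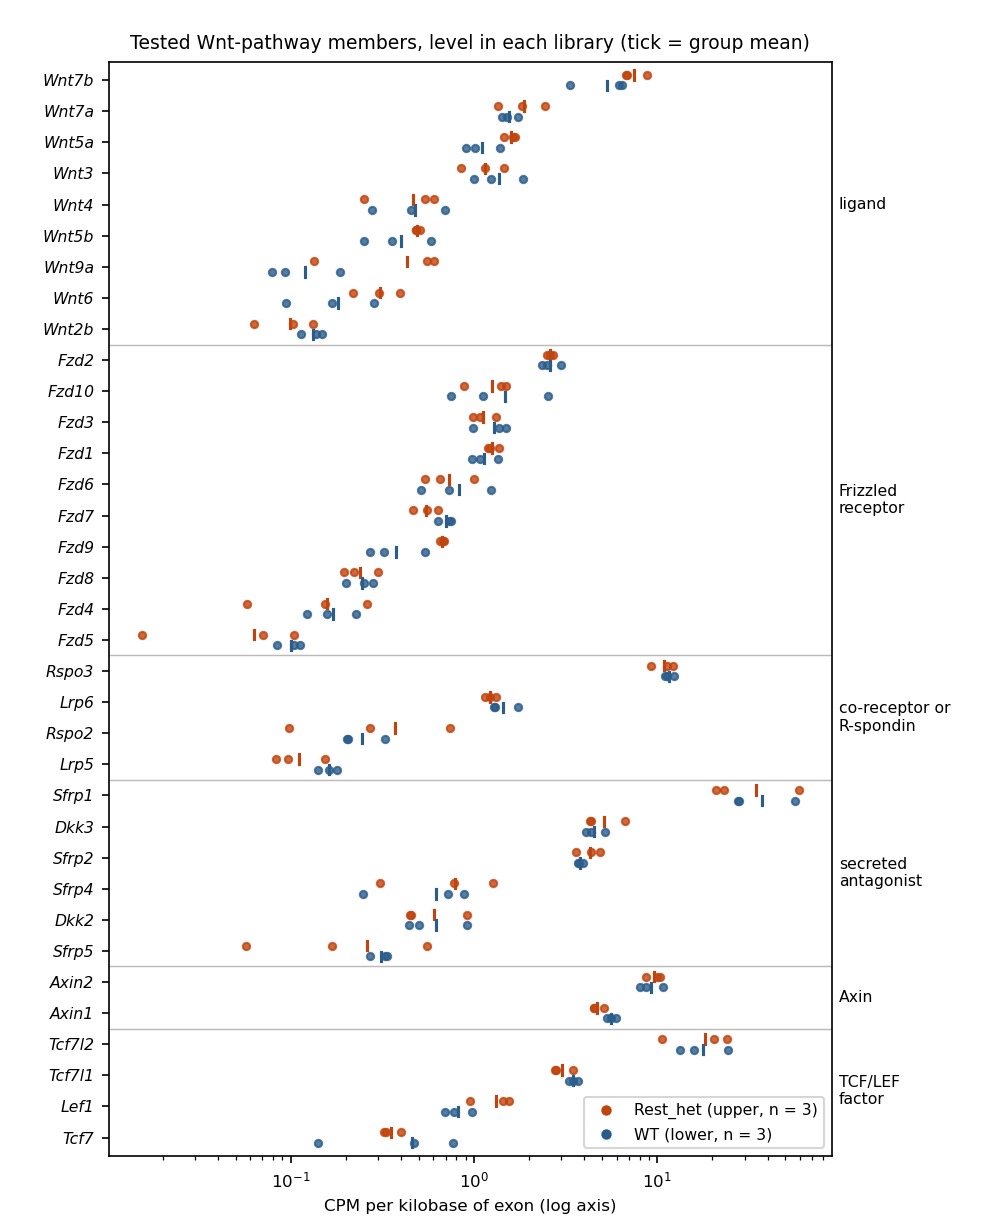
CPM per kilobase of exon on a log axis for the 35 tested members, grouped by role, with Rest_het points above WT points in each row (n = 3 each) and a tick at each group mean. By this length-scaled measure Wnt7b, Fzd2, Rspo3, Sfrp1, Axin2 and Tcf7l2 led their roles, with Sfrp1 at 35.9 and Tcf7l2 at 18.1 CPM per kilobase over the 6 libraries.

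Of the co-receptors, Lrp6 stood above Lrp5 in every library. LRP5 and LRP6 are single-pass receptors that bind Wnt together with Frizzled. Lrp6 averaged 1.34 CPM per kilobase (1.14 to 1.74) and Lrp5 0.136 (0.0833 to 0.180), and these ranges did not overlap. Lrp6 had 16.8, 18.01 and 15.6 CPM in Rest_het, against 23.8, 17.6 and 17.9 CPM in WT, where replicate 1 stood out (log2 fold change -0.23, edgeR adjusted p 0.54). Lrp5 ranged between 0.811 and 1.49 CPM in Rest_het, against 1.37 and 1.75 CPM in WT, and the groups overlapped through Rest_het replicate 3.

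Rspo3 was the R-spondin of this tissue. It averaged 11.2 CPM per kilobase (9.24 to 12.3), while Rspo2 averaged 0.307, Rspo1 0.115 and Rspo4 0.00742. Rspo3 had 34.7, 28.5 and 37.4 CPM in Rest_het, against 34.8, 38.1 and 33.9 CPM in WT (log2 fold change -0.09, SE 0.12, edgeR adjusted p 0.80). The interval of its fold, 0.804 to 1.10, is among the narrower ones. Rspo2 had 3.78, 0.499 and 1.38 CPM in Rest_het, against 1.67, 1.05 and 1.03 CPM in WT, with Rest_het replicates 1 and 2 as the highest and lowest of all libraries. Rspo1, which was not tested, had 15, 4 and 4 reads in Rest_het, against 2, 0 and 0 reads in WT. Rest_het replicate 1 thus held the most reads of Wnt8b, Rspo1 and Rspo2.

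Among the secreted antagonists Sfrp1 had the highest mean level per kilobase of all 49 members, at 35.9 CPM (20.95 to 59.2), and its range overlapped that of Tcf7l2 (10.6 to 24.4). Without length scaling Sfrp1 averaged 150 CPM in Rest_het and 163 CPM in WT, against 161 and 156 CPM for Tcf7l2. SFRP1 is a Frizzled-related decoy made by cortical progenitors. Sfrp1 (chromosome 8, 23411502 to 23449632, plus strand) had 101, 91.6 and 259 CPM in Rest_het, against 247, 122 and 121 CPM in WT. Rest_het replicate 3 and WT replicate 1 stood far above the other 4 libraries, of which both Rest_het values were below both WT values. With all libraries the log2 fold change was -0.12 (SE 0.43, edgeR adjusted p 0.94). Without both high libraries, a setting chosen after seeing the data, it was -0.34 (edgeR adjusted p 0.297), and without WT replicate 1 alone it turned to 0.31. The 2 libraries left out are the highest for Sfrp1 itself, so the p without them cannot test the genotype.

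Dkk3, a divergent member of the Dickkopf family, followed at 4.82 CPM per kilobase and Sfrp2, which marks the antihem at the lateral edge of the cortex, at 4.02, with overlapping ranges. Dkk3 had 22.4, 14.5 and 14.5 CPM in Rest_het, against 17.3, 14.7 and 13.6 CPM in WT (edgeR adjusted p 0.75), and replicate 1 was the highest of each group. Sfrp4 averaged 0.701, Dkk2 0.613 and Sfrp5 0.285 CPM per kilobase. Sfrp5 had 2, 19 and 6 reads in Rest_het, against 13, 12 and 10 reads in WT, the widest ratio between libraries of any tested member, 9.74. Dkk1 had at most 7 reads and Dkk4 at most 3 reads in any library, and neither was tested. Dkk1, an inhibitor that binds LRP6, thus lay far below Dkk3 in both groups. The antagonist sum was 139, 124 and 286 CPM in Rest_het, against 279.6, 151 and 146 CPM in WT, and Sfrp1 alone supplied 72.5 to 90.5% of it.

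The Axins, scaffolds of the complex that degrades beta-catenin, varied little, with a highest library 1.34 times the lowest for Axin2 and 1.33 times for Axin1. Axin2 had 57.2, 47.5 and 54.6 CPM in Rest_het, against 59.5, 44.5 and 47.8 CPM in WT. The groups overlapped, the log2 fold change was 0.07 (SE 0.13, edgeR adjusted p 0.86), and the interval of the fold ran from 0.882 to 1.25. Axin1 had 19.5, 17.2 and 17.3 CPM in Rest_het, against 21.3, 22.9 and 20.4 CPM in WT. All Rest_het values were below all WT values, by a log2 fold change of -0.26 (SE 0.10, edgeR adjusted p 0.41). Per kilobase Axin2 averaged 9.42 CPM and Axin1 5.16, and their ranges did not overlap.

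Among the nuclear factors Tcf7l2 was the main one. Tcf7l2 averaged 18.1 CPM per kilobase (10.6 to 24.4), Tcf7l1 3.25, Lef1 1.06 and Tcf7 0.405, and Tcf7l2 supplied 71.7 to 83.8% of the length-scaled TCF/LEF sum. It had 211, 92.6 and 179 CPM in Rest_het, against 214, 117 and 139 CPM in WT (log2 fold change 0.04, SE 0.31, edgeR adjusted p 0.98). Replicate 1 was the highest library of both groups and Rest_het replicate 2 the lowest of all, with a fold interval of 0.671 to 1.57. Thalamic neurons express Tcf7l2 strongly. The 12 thalamic and hypothalamic markers summed to 89.3, 85.8 and 77.9 CPM in Rest_het, against 56.5, 69.6 and 58.8 CPM in WT, of which Slc17a6 supplied 36.3 to 51.05 CPM. All 5 of them that were tested had log2 fold changes above 0 (median 0.77), and edgeR called 0. Of those too low to be tested, Irx1, Irx2 and Shox2 had higher means in WT, and Gbx2, Irx3, Otp and Sim1 in Rest_het. Lhx9 had 10.9, 14.4 and 6.16 CPM in Rest_het, against 5.64, 5.38 and 4.17 CPM in WT. Barhl2 and Calb2 were also higher in every Rest_het library than in any WT library, while Gbx2, a defining gene of the thalamus, had at most 0.27 CPM in any library. The thalamic and hypothalamic sum was lowest in WT replicate 1, the highest library for Tcf7l2. The meningeal sum was 368, 196 and 549 CPM in Rest_het, against 514, 196 and 275 CPM in WT. Like Tcf7l2, it was higher in WT replicate 1 and Rest_het replicates 1 and 3 than in the remaining libraries. The part of either tissue in the Tcf7l2 level was not tested. Tcf7l1, which acts largely as a repressor, had 10.8, 11.03 and 13.6 CPM in Rest_het, against 13.6, 12.97 and 14.5 CPM in WT (edgeR adjusted p 0.54).

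Lef1, a factor needed for the hippocampus and itself a target of Wnt signals, had the smallest unadjusted p of the members. It had 13.6, 8.31 and 12.6 CPM in Rest_het, against 8.55, 6.07 and 6.85 CPM in WT. Rest_het replicates 1 and 3 were above every WT library and Rest_het replicate 2 lay just under WT replicate 1. Its mean was 11.5 ± 2.83 CPM in Rest_het and 7.16 ± 1.27 CPM in WT (SD, n = 3 each), a fold of 1.61 with an interval of 1.19 to 2.17 and an edgeR adjusted p of 0.36. Over the single libraries left out in turn the log2 fold change was 0.55 to 0.88. Tcf7 had 0.865, 1.05 and 0.850 CPM in Rest_het, against 2.01, 0.369 and 1.24 CPM in WT, where the WT values lay on both sides of the Rest_het values.

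Other genes of the pathway, in lists chosen with earlier results of these data known, were read from the same fit. Of 24 genes for secretion and extracellular control, 17 were tested and edgeR called 0, with 4 higher and 0 lower at an unadjusted p under 0.05, which is 23.5% against 11.7% of all tested genes. Ptk7, a pseudokinase co-receptor of planar polarity, had 15.8, 14.5 and 18.9 CPM in Rest_het, against 5.40, 10.7 and 10.7 CPM in WT, groups that did not overlap (log2 fold change 0.88, SE 0.25, edgeR adjusted p 0.35). Ror2, a receptor for Wnt5a, had a log2 fold change of 0.63, Porcn, the enzyme that acylates Wnts, 0.41, and the antagonist Sostdc1 1.34, with edgeR adjusted p of 0.41 to 0.43 and overlapping groups. Sostdc1 was 0.76 without Rest_het replicate 3 and 2.05 without WT replicate 1.

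Of 34 cytoplasmic and nuclear components all 34 were tested and edgeR called 0, with 3 higher and 1 lower at an unadjusted p under 0.05, which is 11.8% against 11.7% of all tested genes, and the median log2 fold change was -0.01. Ctbp1, a corepressor gene on chromosome 5, had 74.2, 75.6 and 50.04 CPM in Rest_het, against 24.8, 33.0 and 42.8 CPM in WT. The groups did not overlap, and the log2 fold change of 0.99 (SE 0.22) had an edgeR adjusted p of 0.32 and a DESeq2 adjusted p of 0.0024, a DESeq2 call. DESeq2 called 0.825% of all tested genes. Dvl2, which relays the signal from Frizzled, had 6.32, 5.93 and 4.52 CPM in Rest_het, against 2.87, 3.01 and 3.55 CPM in WT (edgeR adjusted p 0.32). Ctnnbip1, an inhibitor that binds beta-catenin, had a log2 fold change of 0.88 and the kinase gene Tnik -0.24, with edgeR adjusted p of 0.41 and 0.36 and groups that did not overlap.

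Genes that respond to Wnt signals, 13 in all with 3 of them members, gave 9 tested and 0 called by edgeR, with 2 higher and 0 lower at an unadjusted p under 0.05, which is 22.2% of a short list against 11.7% of all tested genes. The 2 were Lef1 and Tnfrsf19, a receptor of the TNF family, with 39.2, 26.9 and 36.5 CPM in Rest_het, against 26.7, 25.5 and 25.6 CPM in WT (edgeR adjusted p 0.37). The groups did not overlap, and Rest_het replicate 2 was close to the WT values. Myc had a log2 fold change of 0.27 and Apcdd1 -0.22, with edgeR adjusted p of 0.47 and 0.68. The median over the 9 was 0.07. Of the 13, Nkd1, Notum, Rnf43, Znrf3, Lgr5 and Apcdd1 are also in the pathway lists above, so the lists are not separate sets.

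Several members varied widely between single libraries. The highest library was more than 2 times the lowest for 21 of the 35 tested members, 60% of them, against 27.8% of all tested genes. The median ratio was 2.25 over the members and 1.52 over all tested genes, and the ratio includes counting error, which is large for members with few reads. Rest_het replicate 3 and WT replicate 1 were the highest 2 libraries for 6 of the 35 members, or 17.1%, against 8.77% of all tested genes. The 6 were Sfrp1, Fzd10, Fzd6, Fzd4, Wnt4 and Dkk2. The same 2 libraries had the highest shares of read pairs in no gene. These were 25.5% in Rest_het replicate 3 and 26.9% in WT replicate 1, against 21.4 to 24.8% in the other libraries. WT replicate 1 was also the highest library for 20.6% and the lowest for 25.2% of all tested genes, the most of any library for each. The part of such library differences in the pattern was not tested.

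Fzd6 had 2.59, 3.16 and 4.83 CPM in Rest_het, against 5.93, 2.48 and 3.502 CPM in WT. Fzd4, a receptor of the vascular endothelium, had 1.03, 0.388 and 1.75 CPM in Rest_het, against 1.53, 1.05 and 0.824 CPM in WT. Wnt4 had 2.27, 1.05 and 2.55 CPM in Rest_het, against 2.92, 1.16 and 1.91 CPM in WT, and Dkk2 1.68, 1.66 and 3.40 CPM, against 3.39, 1.63 and 1.85 CPM. Each of these genes thus had a high library in both genotypes. The same 2 libraries were the highest for 11 of the 12 meningeal markers, whose sum was 368, 196 and 549 CPM in Rest_het, against 514, 196 and 275 CPM in WT, and for 7 of the 12 tested markers of endothelium and mural cells. The part of these tissues in the levels of the 6 members was not tested. Without Rest_het replicate 3 and WT replicate 1, edgeR called 0 members. The log2 fold change without both was -0.34 for Sfrp1, -0.061 for Fzd6 (-0.17 with all libraries), -0.40 for Fzd4 (-0.10) and -0.068 for Dkk2 (-0.033). It changed sign for Fzd10, 0.28 against -0.23 with all libraries, and for Wnt4, 0.11 against -0.03. The edgeR adjusted p without both was 0.297 for Sfrp1 and 0.775 or more for the other 5. The 6 were picked because these libraries were their highest, so the values without both cannot test the genotype.

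**Figure D4:**
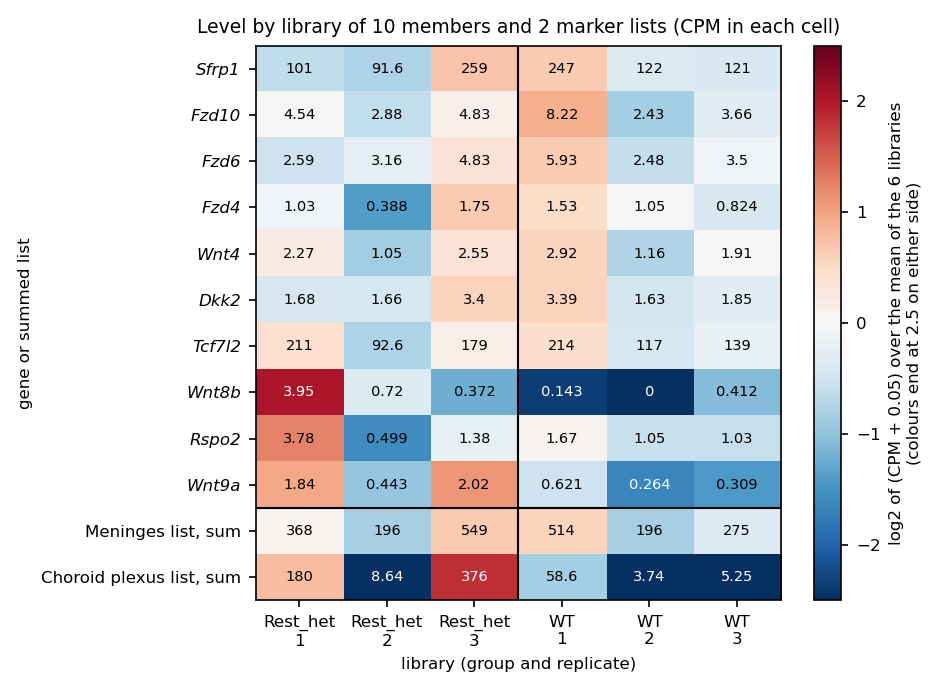
CPM in each library for 10 members and for the summed meningeal and choroid plexus lists, with Rest_het columns left of WT columns and colour for the log2 level relative to the mean of the 6 libraries. Sfrp1, Fzd10, Fzd6, Fzd4, Wnt4 and Dkk2 were highest in Rest_het replicate 3 and WT replicate 1, as was the meningeal sum, while Wnt8b and Rspo2 were highest in Rest_het replicate 1. The choroid plexus sum was mostly Ttr in every library.

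Where members lie on the genome was set beside the 19 genes that edgeR called over all genes, which lie on chromosomes 1, 5 and 8. Of the 49 members, 9 are on these chromosomes, and 4 of them, Fzd9, Fzd10, Wnt6 and Wnt10a, lie inside the spans of the called genes. The spans are wide, 68115195 to 127679548 on chromosome 1 and 107106570 to 138107822 on chromosome 5. The share of all genes inside them was not computed, so these positions show no link to the called genes. Fzd9 is 2.83 Mb from the nearest called gene, Fzd10 1.02 Mb and Wnt6 6.66 Mb. Their log2 fold changes were 0.83, -0.23 and 0.73, and Wnt10a, with 4, 3 and 0 reads in Rest_het, against 0 throughout WT, was not tested. Fzd5, outside the span, is 3.38 Mb from a called gene. Lef1, Wnt5a, Wnt9a and Axin1 are on chromosomes 3, 14, 11 and 17, which hold 0 of the 19.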

How the data were processed

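The authors deposited a read count per gene for each library. The submitters' processing notes name STAR (version 2.5.2a) and GRCm38.p4, and the annotation is not given in the sources used here. An oligo dT primer made the cDNA, which was amplified for 12 PCR cycles and tagmented (per the labels' protocols). No molecular identifiers were used, so PCR copies count as reads and limits cover counting error only. The unstranded column was used, since the strand columns held 49.9 to 50.1% each. Rows that name no gene stayed out: 1.21 to 1.45% of read pairs were unmapped, 6.29 to 7.48% multimapping, 21.4 to 26.9% in no gene and 2.54 to 2.85% ambiguous. The authors also deposited a normalized signal per gene, in which each value equals the count over a size factor of its library (relative tolerance 1e-06).

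Symbols were matched for 48349 of 48709 gene IDs. Positions and exon lengths (union of exons) came from GENCODE M21 on GRCm38. The quasi-likelihood test of edgeR 4.0.16 in R 4.3.3 was fitted to the counts of all 6 libraries, with TMM scaling, genotype as the single term and the filterByExpr filter (minimum count 10, minimum total 15). A call is a Benjamini-Hochberg adjusted p under 0.05 over all tested genes; SE is the log2 fold change over the root of F, and fold intervals (95%) are normal intervals from the SE. The code was tested on simulated data. Alternatives used DESeq2 1.42.0, limma 3.58.1 and the settings named at the end. Members and lists were chosen with earlier results of these data known. Values in every library were given by a rule: members called, at an unadjusted p under 0.05 or with groups that do not overlap, the 2 highest per kilobase and the member with the widest ratio in each role, and up to 4 genes per other list; untested members and the genes of the library pattern were added after their values were seen.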

Additional observations from a re-analysis of the deposited data

Results flagged for a closer look

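Reads assigned to sequences outside the mouse genes split by genotype. Cre-ERT2 had 10, 16 and 17 reads in Rest_het, 43 in all, and 0 in each WT library. LacZ had 0 reads in each Rest_het library and 27, 51 and 43 reads in WT, 121 in all. Both are signals in rows that no comparison uses, and their part in any Wnt-pathway value was not tested.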

How the results depend on the processing

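No member was called under any of the 14 alternatives (0 of those tested), with smallest adjusted p of 0.19 by DESeq2, 0.0996 without a filter and 0.51 with the replicate number as a block. Over all tested genes the calls were 19, against 127 by DESeq2, 107 without a filter, 6 with the replicate block, and 12 (without WT replicate 1) to 35 (without WT replicate 2) with 1 library left out; DESeq2 size factors, a filter at 1 CPM and limma on the deposited values gave 19. With the mean of each group removed from the log2 levels, same-numbered samples correlated at 0.0115, 0.0366 and -0.144. With 3 libraries a group such values depend on each other, so they neither show nor exclude a pairing by number. Of the other pathway genes, 1 (Ctbp1) was called by DESeq2 and 1 without a filter. The median log2 fold change of the tested members, -0.03, was -0.085 to 0.20 with 1 library left out, the highest without WT replicate 1. Members at an unadjusted p under 0.05 numbered 5, against 1 (Axin1) without Rest_het replicate 1, 8 without a filter and 7 without both Rest_het replicate 3 and WT replicate 1, a setting chosen after seeing the data. Of 32 named genes 10 changed sign in some setting. On the log2 scale, leaving out libraries gave Tcf7l2 -0.21 to 0.33, Rspo2 -0.41 to 1.04, Sfrp1 -0.76 to 0.31, Dkk3 -0.072 to 0.38, Sfrp5 -1.43 to 0.21, Fzd2 -0.085 to 0.089, Rspo3 -0.19 to 0.022, Fzd10 -0.54 to 0.42, Tcf7 -0.81 to 0.25 and Axin2 -0.015 to 0.20. Limma on the deposited values gave -0.0027 for Tcf7l2. The cause of these changes was not tested. Wnt5a (0.40 to 0.73), Lef1 (0.55 to 0.88), Wnt9a (1.501 to 2.30) and Axin1 (-0.32 to -0.21) kept their direction with each library left out. With 3 libraries a group, an exact permutation test of 1 gene cannot go below 0.1, and members with few reads have wide intervals: 1 read is 0.0478 to 0.0554 CPM.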
